A study of Mus musculus with 26 samples.

Results

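The 39 protein-coding genes of the mouse Hox clusters were followed here across all 13 groups of the study. They were taken by name, as every gene called Hoxa, Hoxb, Hoxc or Hoxd plus a number, and made up 39 of the 55291 genes in the count table. The Hoxa cluster held 11 members on the minus strand of chromosome 6 (mm10 positions 52155590 to 52260880). The Hoxb cluster held 10 on the plus strand of chromosome 11 (96194316 to 96368256), the Hoxc cluster 9 on the plus strand of chromosome 15 (102921103 to 103036852), and the Hoxd cluster 9 on the plus strand of chromosome 2 (74668310 to 74765142). All 39 lay at the position that GENCODE release 21 gives them.

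The study asked how the transcription factor DUX and a super-enhancer at the Tdpoz genes act when mouse embryonic stem cells (ESCs) are pushed toward a totipotent-like state, and its RNA-seq part held 26 poly(A) libraries, 2 for each group. All cells were R1 mouse ESCs grown with leukaemia inhibitory factor on gelatin. The RA group received 0.53 µM retinoic acid for 48 h, the PlaB group 4 nM of the splicing inhibitor pladienolide B for 4 days, and the DMSO group the solvent alone. The ESC group was untreated. SE KO RA, SE KO PlaB and SE KO Dux OE were cells labelled SE KO, which by the study's methods lack the Tdpoz super-enhancer, under retinoic acid, pladienolide B or Dux overexpression. Cells with a short hairpin RNA against Dux made up Dux KD RA, Dux KD PlaB and also Dux KD Zscan4 OE, under retinoic acid, pladienolide B or Zscan4 overexpression. For Dux KD Zscan4 OE the overexpression is given by the title only, and its treatment label reads "no". Dux OE, DuxR70A OE and Zscan4 OE overexpressed Dux, a Dux form with 1 changed residue, or Zscan4 for 24 h from a promoter switched on by 4 µg/mL doxycycline. SE KO and Dux KD cells without any inducer were not analysed here, so the knockout or knockdown and the baseline of its cell line cannot be told apart. The study describes the libraries of the SE KO comparisons under retinoic acid and under Dux overexpression as biological replicates. For the other groups the sources used here do not say that the 2 libraries came from separate cultures. All p-values came from 1 model over the 26 libraries. They measure a spread between libraries that is pooled over the groups and may be technical in part.

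Hox proteins are homeodomain transcription factors that give cells of the embryo their position along the head-to-tail axis. Within a cluster, genes of low paralog number lie at one end and are switched on first and most anteriorly, and genes of high number follow later and more posteriorly. In ESCs the clusters are held silent by Polycomb complexes. Retinoic acid, bound to its nuclear receptors, is a classical inducer that opens the clusters from the low-numbered end. Hox proteins bind DNA together with TALE homeodomain cofactors of the Pbx, Meis and Pknox families.

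Library totals ran from 14401452 to 39402840 counts. Hox genes took 7750 and 7441 counts in the RA libraries, 5173 and 5736 in SE KO RA, 6338 and 6034 in Dux KD RA, and 233 to 1145 in every other library, so most members were thinly counted outside retinoic acid. The Dux gene Duxf3 was at 2.16 and 2.75 CPM (counts per 1000000, on TMM-scaled totals) in RA, 0.0931 and 0.423 in SE KO RA, and 0.919 and 0.354 in Dux KD RA. Both altered lines were below RA, by 3.18 ± 0.50 (SE) on the log2 scale in SE KO RA and by 1.93 ± 0.46 in Dux KD RA (edgeR adjusted p = 1.13e-05 and 0.00154). One SE KO RA library, replicate 1, carries a wild-type genotype label beside its SE KO title. Over all genes its log2 CPM correlated at r = 0.991 with SE KO RA replicate 2 and at 0.960 and 0.961 with the RA libraries. Calls of Hox genes in SE KO RA are therefore also given without replicate 1. Sums, medians and genes outside the clusters are given with it only. The 2 SE KO Dux OE libraries held 58.9% and 59.9% even values among counts of 1 to 200, against 42.7% to 45.7% in the other 24 libraries, and their comparison was repeated with their counts halved.

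To show what lies in front of the members that the results turn on, the 250 bases before the RefSeq start site (GRCm38.p6) are printed for Hoxb1 and Hoxb4, which went from no count to the highest fold bounds under retinoic acid, for Hoxa5, which was lower in SE KO RA, and for Hoxb8, which was higher in SE KO PlaB. Capitals mark letters found by search on both strands. In Hoxb1 and Hoxb8 they mark TGATNNAT, the letters bound by Pbx–Hox pairs, and in Hoxb4 they mark AGGTCA, a half-site of retinoic acid receptors, read on the minus strand. Hoxa5 held none of the letters searched.
Hoxb1, chr11:96365508-96365757, plus strand: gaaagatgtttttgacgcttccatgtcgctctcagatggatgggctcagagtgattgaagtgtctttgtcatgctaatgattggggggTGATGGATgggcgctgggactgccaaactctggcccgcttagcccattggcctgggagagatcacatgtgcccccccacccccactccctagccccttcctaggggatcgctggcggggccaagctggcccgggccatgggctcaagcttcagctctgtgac
Hoxb4, chr11:96318017-96318266, plus strand: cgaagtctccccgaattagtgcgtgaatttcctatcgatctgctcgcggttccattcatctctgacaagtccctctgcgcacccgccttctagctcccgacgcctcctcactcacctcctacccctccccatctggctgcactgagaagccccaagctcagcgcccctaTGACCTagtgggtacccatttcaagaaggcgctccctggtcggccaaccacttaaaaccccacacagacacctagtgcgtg
Hoxa5, chr6:52204588-52204837, minus strand: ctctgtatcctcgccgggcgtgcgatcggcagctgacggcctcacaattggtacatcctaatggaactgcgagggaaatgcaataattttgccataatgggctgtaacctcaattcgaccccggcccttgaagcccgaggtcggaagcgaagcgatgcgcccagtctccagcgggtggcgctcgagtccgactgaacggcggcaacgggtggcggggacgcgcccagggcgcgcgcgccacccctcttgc
Hoxb8, chr11:96281655-96281904, plus strand: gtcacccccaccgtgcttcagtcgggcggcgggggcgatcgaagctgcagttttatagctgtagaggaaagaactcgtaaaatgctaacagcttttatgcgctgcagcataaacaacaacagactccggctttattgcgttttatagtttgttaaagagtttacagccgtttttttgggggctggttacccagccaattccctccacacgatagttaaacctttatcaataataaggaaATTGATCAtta

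The marked letters began 162 bases before the start site in Hoxb1, 11 in Hoxb8 and 81 in Hoxb4. RefSeq gave 24 such windows for 22 members. TGATNNAT stood in 4 of the 24, those of Hoxa2, Hoxb1, Hoxb8 and Hoxd11, and in 7.68% of all 32851 windows. AGGTCA stood in 6 of the 24 (Hoxb4, Hoxc4, Hoxd3, Hoxd4, Hoxd8 and Hoxd10) and in 14.0% of all windows. A wider search for AGGTCA together with its variants AGTTCA, and also with GGGTCA, and further with GGTTCA, found 1 or more of them in 9 of the 24 and in 38.6% of all. A pair of such half-sites 5 or 2 bases apart, the arrangement of a full retinoic acid response element, stood in none of the 24 windows, against 0.0883% and 0.174% of all windows. Hox windows were rich in CpG, with a median of 12.5 against 6 over all windows, and the printed ones held 7 CpG in Hoxb1, 12 in Hoxb8, 14 in Hoxb4 and 28 in Hoxa5.

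Without retinoic acid the clusters were nearly silent. The summed Hox level was 13.2 and 14.6 CPM in the DMSO libraries and 19.6 and 19.1 in the untreated ESC libraries. In DMSO, 14 of the 39 members had no count in either library and 7 had more than 3 counts in both. In untreated ESCs these numbers were 8 and 10. What remained came from few genes. Hoxc13, a gene of hair and nail, made up 23.2% of the DMSO sum and Hoxb9, a thoracic gene, 17.8%. In ESCs Hoxb9 made up 25.1% and Hoxc13 24.4%. Members with paralog numbers 9 to 13 together held 54.5% and 53.9% of the sum in DMSO and 72.7% and 73.5% in ESCs. High-numbered members thus outweighed low-numbered ones in the control cells.

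**Figure D1:**
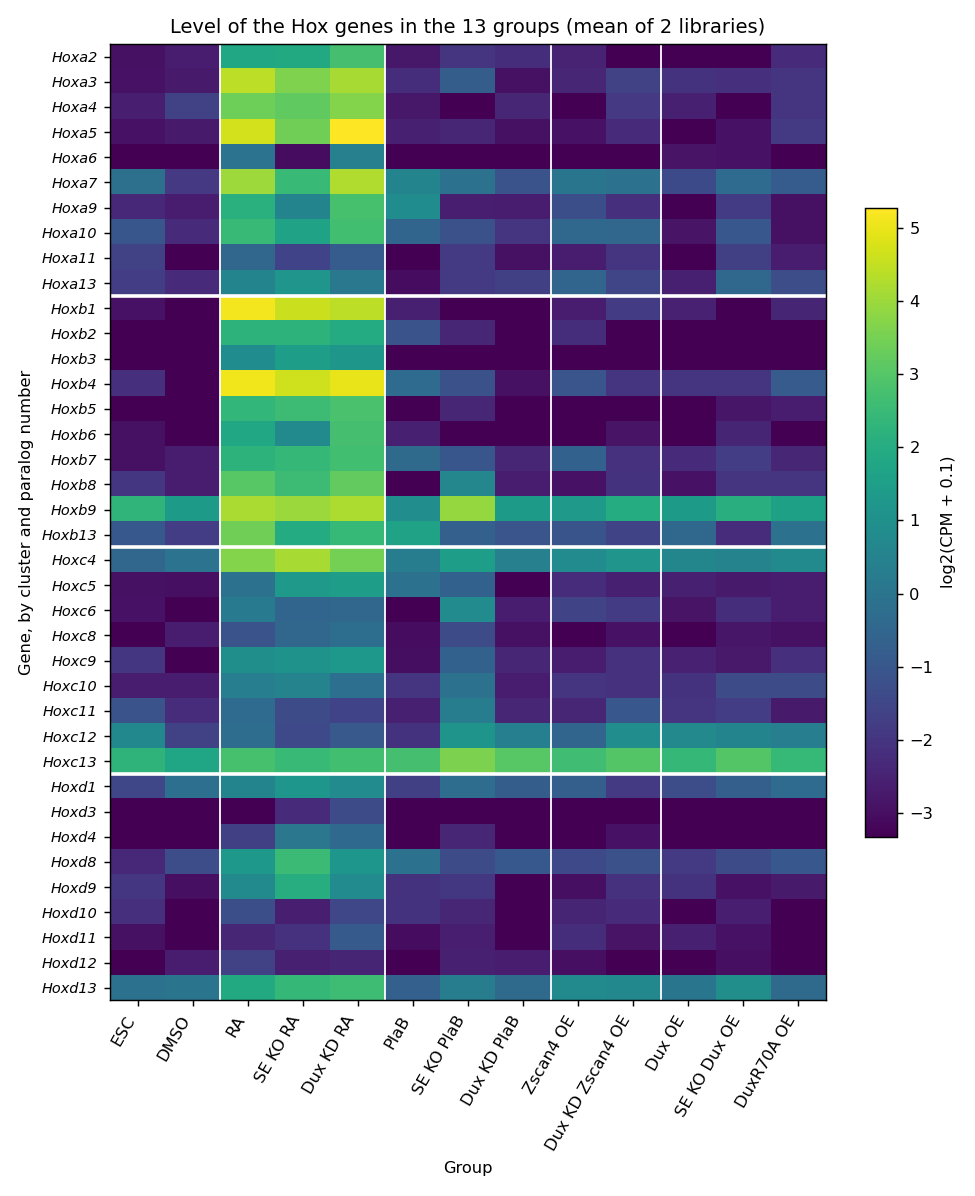
Heat map of the mean level of 38 Hox genes (rows, by cluster and paralog number) in the 13 groups (columns), as log2(CPM + 0.1) with 2 libraries per group. The 3 retinoic acid groups stand out across the Hoxa and Hoxb clusters, and Hoxb9 and Hoxc13 are above 1 CPM in all 13 groups.

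Retinoic acid raised nearly every member that could be tested. The summed Hox level rose to 341 and 347 CPM in the RA libraries, and 36 of the 39 members had more than 3 counts in both, the exceptions being Hoxd3, with no count, Hoxd4 and Hoxd11. These 3 share 62.8%, 52.3% and 10.8% of their exon bases with other transcripts. Part of their counts may thus have been split or assigned differently. Of the 35 members that passed the filter on low counts, 34 rose against DMSO (edgeR quasi-likelihood test, Benjamini-Hochberg adjusted p under 0.05 and at least a 2-fold change), against 20.6% of all 20953 genes tested, and none fell (10.4% of all). No member was lower at an unadjusted p under 0.05 or by DESeq2 either (0 by both). All 11 tested Hoxa, all 10 Hoxb and all 9 Hoxc members and 4 of 5 tested Hoxd members rose. Over all 39, both RA libraries were above both DMSO libraries for 38, a description only, since this share was not computed over all genes. The remaining tested member, Hoxd1, was at 1.23 and 1.54 CPM in RA and 0.738 and 0.823 in DMSO (0.82 ± 0.41 on the log2 scale, adjusted p = 0.0918). The median log2 change was 5.70 over tested members and 0.10 over all genes tested. A floored log2 ratio was also taken from summed counts, with any group sum under 3 counts set at 3. Its median was 4.05 over 38 members, untested ones included, so the 2 medians differ in members as well as in measure.

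Paralogs 1 to 4, the genes of the hindbrain and neck, held most of the summed Hox level in RA, but not the largest fold changes as a class. The median log2 change was 5.79 for paralogs 1 to 4, 7.03 for 5 to 8 and 4.27 for 9 to 13. The medians of the floored log2 ratio, over 11, 11 and 16 members with untested ones included, were 5.36, 5.36 and 2.87. Hoxb1, which specifies a segment of the hindbrain and maintains its own expression with Pbx partners, had no count in DMSO and was at 32.9 and 36.5 CPM in RA, at least 414-fold higher against a floor of 3 counts over the DMSO pair. Hoxb4, a regulator of blood stem cells as well as of the neck vertebrae, had no count in DMSO and was at 33.1 and 35.3 CPM in RA, at least 408-fold higher. Both genes thus went from no count to more than 30 CPM in both libraries.

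Hoxa3, needed for the third pharyngeal arch, thymus and parathyroid, was at 0 and 0.110 CPM in DMSO and 20.9 and 21.2 in RA. With 2 counts in DMSO its ratio was 378, with a 95% counting interval of 104 to 3122. Hoxa4 was at 0.0567 and 0.384 CPM in DMSO and 10.4 and 10.2 in RA (5.49 ± 0.42, adjusted p = 6.28e-11), and Hoxc4 rose from 0.851 and 0.877 CPM to 12.3 and 12.9 (3.86 ± 0.24, adjusted p = 1.47e-13). The groups did not overlap for any of these genes. Exons of Hoxa3 and Hoxa4 are shared with other annotated transcripts over 27.1% and 16.0% of their bases, and whether counting used strand is not stated in the sources used here, so part of their counts may have been split or assigned differently. The lower-level members of this class were Hoxa2 (3.66 and 3.21 CPM in RA), Hoxb2 (5.24 and 3.96) and Hoxb3 (1.81 and 1.58), and Hoxd4 reached only 0.132 and 0.279. In the same order, these 4 share 15.0%, 27.3%, 52.9% and 52.3% of their exon bases with other transcripts, so the same limit holds for them.

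Paralogs 5 to 8, the genes of the lower neck and trunk, rose as well, all 11 of 11. Hoxa5, which patterns the neck-to-thorax boundary and the lung, was at 0 and 0.110 CPM in DMSO and 26.5 and 24.4 in RA (ratio 456, counting interval 126 to 3772). Hoxa7 went from 0.227 and 0.110 CPM to 15.7 and 16.4 (6.53 ± 0.30, adjusted p = 4.19e-16), and 20.4% of its exon bases are shared with an antisense transcript. Hoxb8, a trunk gene also known from blood progenitors, was at 0.114 and 0 CPM in DMSO and 6.61 and 9.69 in RA. Its RA libraries were both far above DMSO. Hoxa6 stood out between its neighbours, with 0 in DMSO and only 0.661 and 1.07 CPM in RA.

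Among paralogs 9 to 13, the posterior and tail genes, the rises were smaller for Hoxb9 and Hoxc13, which were already above 2 CPM in DMSO. Hoxb9 rose from 2.21 and 2.74 CPM to 18.5 and 17.8 (2.87 ± 0.17, adjusted p = 9.93e-14). Hoxc13 went from 3.18 and 3.29 CPM to 7.05 and 6.43, a change of 1.06 ± 0.20 that lay just past the fold threshold (adjusted p = 4.2e-05). Hoxb13, the most posterior gene of its cluster and known from prostate and tail, rose from 0.170 and 0.219 CPM to 10.4 and 10.5 (5.70 ± 0.39, adjusted p = 1.46e-12). Hoxb13 lies at a distance from the rest of its cluster. Hoxa9, a gene of blood progenitors, reached 4.05 and 4.47 CPM from 0.0567 and 0.0548, and Hoxa10, which acts in the uterus and limb, 5.73 and 5.54 from 0 and 0.219.

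**Figure D2:**
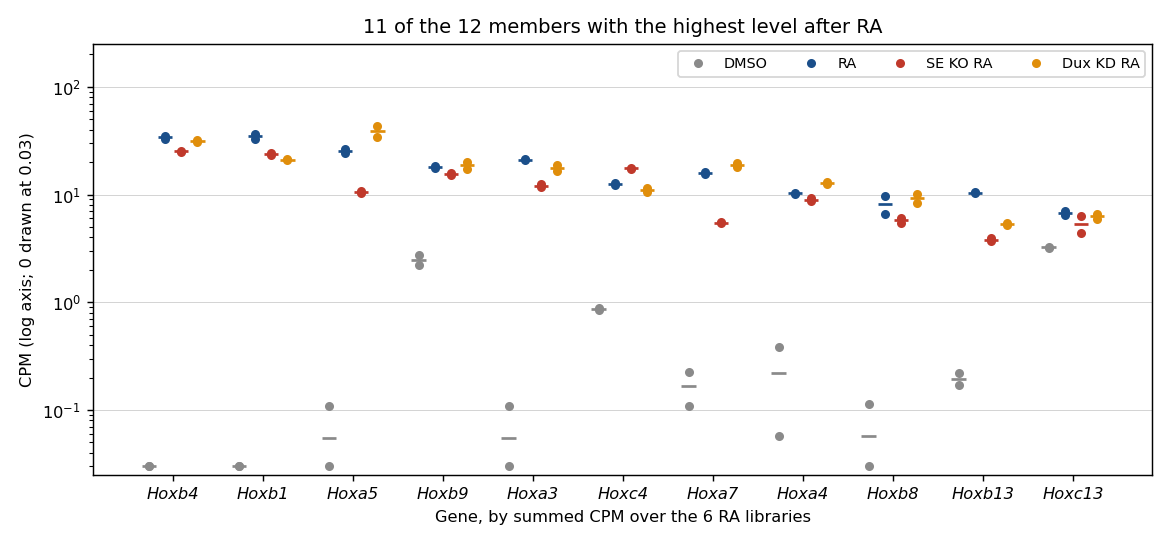
CPM per library (log axis, 0 drawn at 0.03) of 11 of the 12 Hox genes with the highest summed level over the 6 retinoic acid libraries, with 2 points for each of DMSO, RA, SE KO RA and Dux KD RA. In each gene the DMSO points lie below all retinoic acid points, and the SE KO RA points lie below the RA points most clearly in Hoxa5, Hoxa7 and Hoxb13.

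Per kilobase of exon, which allows levels of different genes to be set side by side, Hoxb1 was at a mean of 14.9 CPM per kb in RA, followed by Hoxa5 at 13.5, Hoxb4 at 13.3, Hoxb9 at 7.04, Hoxa4 at 6.45 and Hoxa7 at 5.57. Hoxa5 and Hoxb4 did not differ beyond the spread of their libraries, while the other neighbours in this run did. As a share of CPM, which also grows with transcript length, paralogs 1 to 4 held 62.8% and 64.1% of the sum in RA and 38.2% and 42.7% in DMSO, and paralogs 9 to 13 held 17.1% and 16.4% in RA against 54.5% and 53.9% in DMSO. Across the 38 members with a value, Spearman's rho between paralog number and the change was -0.44, given as a description, since genes of 1 cluster are not independent.

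By cluster, the RA libraries held 182 and 184 CPM from Hoxa, 122 and 128 from Hoxb, 27.0 and 25.2 from Hoxc and 10.4 and 9.18 from Hoxd. In DMSO the same clusters held 3.80 and 5.21, 2.55 and 3.02, 4.48 and 4.66, and 2.38 and 1.76 CPM. The 4 clusters were thus near each other before treatment and spread over more than 10-fold after it, with Hoxa and Hoxb far above Hoxc and Hoxd.

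**Figure D3:**
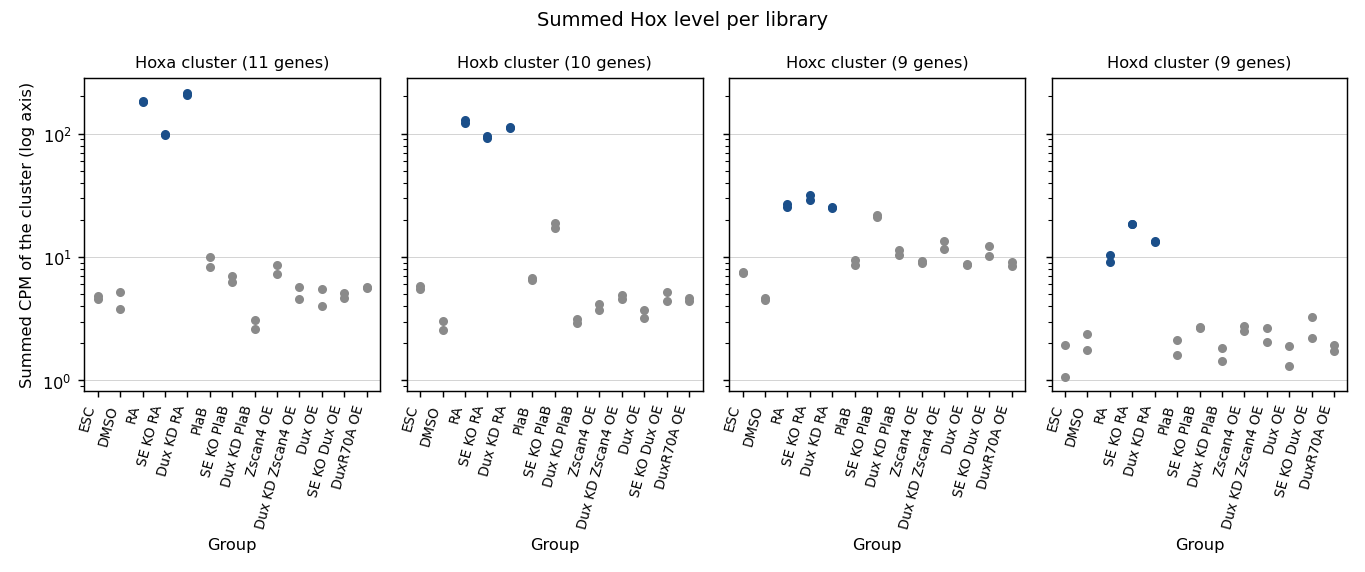
Summed CPM of the members of each cluster in each of the 26 libraries (log axis; points are libraries, 2 per group). In RA the Hoxa points lie at 182 and 184 and the Hoxd points at 10.4 and 9.18, and in SE KO RA the Hoxa points lie lower, the first at 97.4, while the Hoxd points are at 18.6 and 18.4.

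Both altered lines still switched the clusters on under retinoic acid. These comparisons share the DMSO libraries with the one above. Against DMSO, 31 of 35 tested members rose in SE KO RA (17.3% of all genes tested) and 32 of 35 in Dux KD RA (22.0% of all), and none fell in either (9.88% and 9.90% of all, 0 also at an unadjusted p under 0.05 and by DESeq2). Against untreated ESC in place of DMSO, 30 rose and 1 fell in SE KO RA, and 31 rose and 1 fell in Dux KD RA. Hoxb1 was at least 285-fold higher than DMSO in SE KO RA and at least 252-fold in Dux KD RA, and Hoxb4 at least 300.2-fold and 377-fold. Members that did not pass in SE KO RA were Hoxa6, Hoxc11, Hoxc12 and Hoxc13, and in Dux KD RA Hoxc11, Hoxc12 and Hoxc13. Hoxa6 had 1 count over both SE KO RA libraries. Without SE KO RA replicate 1 the number that rose in SE KO RA was 30.

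The SE KO RA libraries nevertheless held less Hox RNA than RA, and the difference was uneven along the clusters. The summed level was 241 and 243 CPM in SE KO RA against 341 and 347 in RA. Of the 35 tested members 7 fell (20% of those tested, against 11.0% of all genes tested) and 4 rose (11.4%, against 6.57% of all). By DESeq2 5 fell and 2 rose, and no share over all genes was computed by DESeq2. Neither the share that fell nor the share that rose was thus clearly above the background. In edgeR the members that fell were Hoxa5, Hoxa6, Hoxa7, Hoxa9, Hoxb6, Hoxb13 and Hoxc12, and those that rose were Hoxc5, Hoxd4, Hoxd8 and Hoxd9. No Hoxa or Hoxb member rose and no Hoxd member fell. Over all 39 members, both SE KO RA libraries were below both RA libraries for 21 and above them for 11. These counts are a description only, since their share was not computed over all genes. The median log2 difference was -0.22 over tested members and -0.04 over all genes tested, and by cluster it was -0.91 for Hoxa, -0.33 for Hoxb, 0.14 for Hoxc and 1.31 for Hoxd.

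The members that fell in Hoxa were neighbours, from Hoxa5 to Hoxa9. Hoxa5 was at 10.4 and 10.8 CPM in SE KO RA against 26.5 and 24.4 in RA (-1.26 ± 0.20, adjusted p = 1.08e-05). Hoxa6 had 1 count in the SE KO RA pair against 38 in the RA pair, a ratio of 0.0258 with a counting interval of 0.000636 to 0.153. Hoxa7 was at 5.40 and 5.59 CPM against 15.7 and 16.4 (-1.54 ± 0.17, adjusted p = 5.08e-08), and Hoxa9 at 1.49 and 1.27 against 4.05 and 4.47 (-1.63 ± 0.36, adjusted p = 6.16e-04). In each of these genes the groups were apart by more than the gap between their libraries.

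On either side of this run the differences were smaller. Hoxa3 was at 12.5 and 11.7 CPM in SE KO RA against 20.9 and 21.2 in RA. The groups were apart, but the log2 difference of -0.80 ± 0.20 (adjusted p = 0.00179) lay under the fold threshold. Hoxa2 and Hoxa4 were at log2 differences of 0.10 ± 0.40 and -0.20 ± 0.25 and did not pass (adjusted p = 0.873 and 0.539). Hoxa10 was at -0.91 ± 0.33 (adjusted p = 0.026), also under the fold threshold. Hoxa13, at the far end, was at 2.47 and 1.82 CPM in SE KO RA against 1.19 and 1.54 in RA (adjusted p = 0.216).

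In Hoxb, the posterior-most gene Hoxb13 fell, at 3.91 and 3.68 CPM in SE KO RA against 10.4 and 10.5 in RA (-1.46 ± 0.25, adjusted p = 2.29e-05). Hoxb6, a trunk gene, was at 1.44 and 1.82 CPM against 3.70 and 3.17 (-1.07 ± 0.38, adjusted p = 0.027). The 2 strongest members of the cluster moved less. Hoxb1 was at 24.3 and 23.4 CPM against 32.9 and 36.5, and Hoxb4 at 25.6 and 24.7 against 33.1 and 35.3, with log2 differences of -0.54 ± 0.16 and -0.44 ± 0.17 that lay under the fold threshold (adjusted p = 0.009 and 0.0356). Hoxb9 and Hoxb8 were at -0.22 ± 0.14 and -0.49 ± 0.26 and did not pass (adjusted p = 0.196 and 0.123).

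The members that rose were of low to middle level. Hoxd8, a trunk gene, was at 5.58 and 5.92 CPM in SE KO RA against 2.73 and 1.91 in RA (1.31 ± 0.33, adjusted p = 0.00202). Hoxd9, its neighbour, was at 4.75 and 3.34 CPM against 1.50 and 1.68 (1.34 ± 0.51, adjusted p = 0.0317), and Hoxd4, a hindbrain gene, at 0.884 and 1.02 against 0.132 and 0.279 (2.18 ± 0.68, adjusted p = 0.0131). Hoxc5 was at 2.51 and 2.29 CPM against 1.15 and 0.559 (1.48 ± 0.48, adjusted p = 0.0143). Exon bases of Hoxd4 are shared with other transcripts over 52.3% of their length. Hoxc4 was at 17.5 and 17.8 CPM against 12.3 and 12.9 (0.48 ± 0.17, adjusted p = 0.0184), under the fold threshold. Hoxc12 was at 0.465 and 0.0846 CPM in SE KO RA against 0.837 and 0.652 (-1.46 ± 0.59, adjusted p = 0.0457).

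Without SE KO RA replicate 1, the library with the conflicting label, 8 members were called, 6 lower and 2 higher. Hoxa5, Hoxa7, Hoxa9 and Hoxb13 were then at -1.23, -1.51, -1.74 and -1.50, while Hoxb6, Hoxc5 and Hoxd9 no longer passed (adjusted p = 0.158, 0.0683 and 0.216). Without RA replicate 1 or RA replicate 2 the count was 7 in both cases, and it was 8 without SE KO RA replicate 2. Over these 4 fits, the calls of Hoxb6, Hoxc12, Hoxd4, Hoxd9 and Hoxc5 were each lost in at least 2, and those of Hoxa5, Hoxa6, Hoxa7, Hoxa9, Hoxb13 and Hoxd8 in none.

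**Figure D4:**
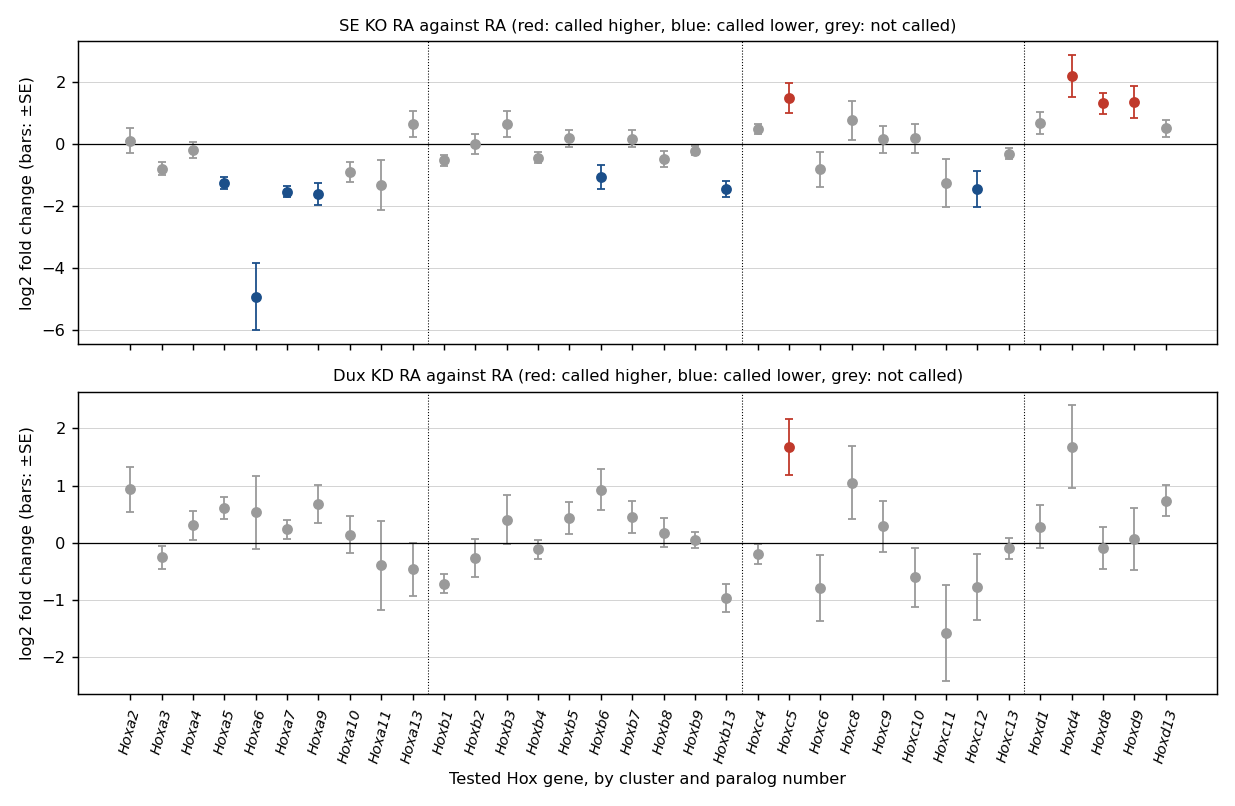
Log2 difference of 34 of the 35 tested Hox genes, with SE as error bars, for SE KO RA against RA (upper) and Dux KD RA against RA (lower), ordered by cluster and paralog number. Blue bars from Hoxa5 to Hoxa9 and red bars in Hoxd mark members called in SE KO RA, and Hoxc5 is the only member called in Dux KD RA.

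Dux knockdown left the response to retinoic acid close to that of RA. The summed level was 364 and 356 CPM in Dux KD RA against 341 and 347 in RA. Of the 35 tested members 1, Hoxc5, rose (6.41% of all genes tested) and none fell (4.53% of all, 2 at an unadjusted p under 0.05 and 0 by DESeq2). The comparison shares the RA libraries with the preceding one. Hoxc5 was at 3.04 and 2.42 CPM in Dux KD RA against 1.15 and 0.559 in RA (1.67 ± 0.49, adjusted p = 0.00856), and its call was lost without RA replicate 2 or without Dux KD RA replicate 1. The median log2 difference was 0.14 over tested members and 0.02 over all genes tested. At an adjusted p under 0.05 without a fold threshold, 4 members were higher and 2 lower.

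Hoxb4 was at 30.8 and 32.2 CPM in Dux KD RA against 33.1 and 35.3 in RA, a log2 difference close to 0 (-0.12 ± 0.17, adjusted p = 0.631). Hoxa5, in contrast, was at 43.0 and 34.2 CPM against 26.5 and 24.4 (0.60 ± 0.19, adjusted p = 0.0142). For Hoxa5 the gap between the Dux KD RA libraries was wider than the gap between the groups.

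The other members past an adjusted p of 0.05 were also under the fold threshold. Hoxb1 was at 20.7 and 21.5 CPM in Dux KD RA against 32.9 and 36.5 (-0.71 ± 0.16, adjusted p = 0.00146). Hoxb13 was at 5.17 and 5.48 CPM against 10.4 and 10.5 (-0.97 ± 0.24, adjusted p = 0.00254). Hoxb6 and Hoxd13, a digit gene, were at 0.93 ± 0.36 and 0.73 ± 0.27 (adjusted p = 0.0462 and 0.0362). For Hoxb13, both altered lines were below RA, with the 2 lines sharing the RA libraries.

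Set against each other, Dux KD RA and SE KO RA differed in 9 tested members. The 6 higher in Dux KD RA were 17.1% of those tested, against 17.0% of all genes tested, and the 3 lower were 8.57%, against 11.2% of all, so members differed at about the share of genes in general. Hoxa5, Hoxa7, Hoxa9, Hoxa10 and Hoxb6 were higher in Dux KD RA by 1.86 ± 0.20, 1.78 ± 0.17, 2.30 ± 0.36, 1.05 ± 0.33 and 1.99 ± 0.38 on the log2 scale (adjusted p = 1.6e-08, 2.3e-09, 5.63e-06, 0.00862 and 1.31e-04). Hoxa6 had 43 counts in the Dux KD RA pair against 1, a ratio of 56.4 with a counting interval of 9.60 to 2280. Hoxa13, Hoxd8 and Hoxd9 were lower by 1.11 ± 0.45, 1.40 ± 0.34 and 1.28 ± 0.51 (adjusted p = 0.0362, 0.00103 and 0.0364). Scaling by library totals alone gave 7 higher and 1 lower, and without SE KO RA replicate 1 the calls of Hoxa10, Hoxa13 and Hoxd9 were lost.

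Of 9 TALE genes, the cofactors of Hox proteins, 5 rose in RA against DMSO (20.6% of all genes tested) and none fell (10.4% of all). Meis1, a Hox partner that stabilises binding with Pbx, went from 0.284 and 0.0548 CPM to 8.99 and 8.66 (5.67 ± 0.49, adjusted p = 1.39e-10), and Meis2 from 0.567 and 0.439 to 15.7 and 14.3 (4.89 ± 0.33, adjusted p = 1.35e-12). Pknox2 and Meis3 rose by 4.34 ± 0.27 and 2.60 ± 0.26. In SE KO RA against RA 1 of 9 rose (6.57% of all), Pbx4 (1.84 ± 0.21), and none fell (11.0% of all). In Dux KD RA against RA 2 rose (6.41% of all), Meis2 at 44.5 and 43.4 CPM (1.55 ± 0.20) and Pbx4 (1.28 ± 0.22).

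Among 15 regulators that act upstream of Hox transcription, 8 rose and 1 fell in RA against DMSO (20.6% and 10.4% of all genes tested). Cyp26a1, Cyp26b1 and Cyp26c1, which break down retinoic acid, rose by 7.82 ± 0.26, 5.69 ± 0.39 and 3.81 ± 0.61, and Rarb, a receptor that is itself a target, rose by 5.64 ± 0.42. Cdx1, a caudal factor that activates trunk Hox genes, went from 7.04 and 8.66 CPM to 25.1 and 28.4 (1.77 ± 0.17, adjusted p = 1.19e-09). In SE KO RA against RA, 3 rose and 2 fell (6.57% and 11.0% of all). The 3 were the caudal genes. Cdx1 was at 65.4 and 64.4 CPM (1.28 ± 0.15), and Cdx2 and Cdx4, both under 1.5 CPM in every RA and SE KO RA library, were higher by 2.07 ± 0.65 and 3.06 ± 0.72. Rarb was lower by 1.24 ± 0.26 and Cyp26c1 by 1.16 ± 0.44. In Dux KD RA, Cyp26c1 rose by 1.12 ± 0.41 and the receptor Rara fell, at 37.1 and 33.8 CPM against 68.1 and 74.2 in RA (adjusted p = 3.71e-09).

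Of 17 Polycomb and trithorax regulators, which hold the clusters off or on, 3 rose and 2 fell in RA against DMSO. Of all genes tested, 20.6% rose and 10.4% fell, so both shares were near the background. Cbx8 and Bmi1 rose by 3.85 ± 0.27 and 1.15 ± 0.17, and Cbx7, the Cbx protein typical of ESCs, and Eed fell by 1.59 ± 0.09 and 1.21 ± 0.10. In SE KO RA against RA 1 regulator fell (11.0% of all) and none rose (6.57% of all). It was Jarid2, a Polycomb recruiter, at 121 and 125 CPM against 325 and 324 (-1.40 ± 0.07, edgeR adjusted p = 6.88e-15). In Dux KD RA against RA 1 rose (6.41% of all), Bmi1 (1.09 ± 0.16), and none fell (4.53% of all). Non-coding transcripts of the clusters moved with the coding members in RA, where 5 of 6 tested rose (20.6% of all genes tested). Hotairm1, a transcript of the Hoxa cluster, went from 0.397 and 0.494 CPM to 9.25 and 8.34 (4.28 ± 0.33), and was at 8.66 and 8.21 in SE KO RA, where none of the 6 passed. Hoxaas2, in the Hoxa cluster, rose by 1.81 ± 0.32 when Dux KD RA was set against RA.

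Genes beside the clusters rose at a share near that of all genes. Of 13 tested neighbours 3 rose in RA against DMSO (20.6% of all genes tested) and none fell, and the 3, Calcoco2, Skap1 and Ttll6, all lie near the Hoxb cluster. Calcoco2, an autophagy receptor, was at 5.16 and 5.05 CPM in DMSO, 223 and 214 in RA, 64.6 and 63.6 in SE KO RA and 749 and 724 in Dux KD RA. Of 7 tested homeobox genes close to Hox in descent, 2 rose in RA (20.6% of all), En1 and Mnx1, and 2 fell (10.4% of all), En2 and Gbx2.

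Cell type markers moved beside the Hox genes, and their part in the results was not tested. Of all genes tested, 20.6% rose and 10.4% fell in RA against DMSO, and 6.57% rose and 11.0% fell in SE KO RA against RA. In RA against DMSO 6 of 8 ESC markers fell and none rose, 7 of 8 primitive endoderm markers rose, 4 of 7 tested fibroblast markers rose, 1 of 6 tested neural markers rose and 1 of 5 tested mesoderm markers fell. The summed ESC list was at 7041 to 7124 CPM in DMSO, 4366 to 4370 in RA, 3237 to 3286 in SE KO RA and 5039 to 5043 in Dux KD RA, and the primitive endoderm list at 109 to 114, 608 to 640, 274 to 292 and 341 to 342 CPM. The fibroblast list, for feeder cells, was at 53.5 to 54.3, 108 to 123, 146 to 158 and 67.5 to 68.3 CPM in the same order, with Lum at 0 in all 4 groups and Dcn and Col3a1 also at 0 in SE KO RA and DMSO. In SE KO RA against RA 1 ESC marker rose and 4 fell, 3 primitive endoderm markers fell, 1 fibroblast marker rose and 3 fell, and 3 neural and 2 mesoderm markers rose. In these bulk samples, fewer cells that express a gene and less RNA per cell cannot be told apart.

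Pladienolide B moved much of the transcriptome, and 11 tested Hox genes with it. The summed level was 26.1 and 27.2 CPM in PlaB against 13.2 and 14.6 in DMSO. Of the 35 tested members 10 rose and 1 fell, against 32.3% and 26.6% of all genes tested, so the share that rose was near the background. With untreated ESC in place of DMSO, 7 rose and 5 fell, and 7 of the calls were the same. Hoxa7, Hoxa10, Hoxc13 and Hoxd1 then no longer passed, at log2 differences of 0.77, 0.64, 0.48 and -0.29. Hoxb13 went from 0.170 and 0.219 CPM to 2.66 and 3.31 (3.90 ± 0.44, adjusted p = 6.77e-09). Hoxc13 was at 7.12 and 6.13 CPM against 3.18 and 3.29 (1.03 ± 0.20). Hoxa9 went from 2 counts to 73 (ratio 30.7, counting interval 8.19 to 258) and Hoxa7 from 0.227 and 0.110 CPM to 1.26 and 1.50 (3.00 ± 0.41, adjusted p = 2.18e-07). The other members that rose were Hoxa10, Hoxb2, Hoxb4, Hoxb7, Hoxc5 and Hoxd8, none of them above 1.2 CPM in any PlaB library. Hoxd1 fell from 28 counts to 9 (-1.86 ± 0.55). Hoxb1, at least 414-fold higher in RA, was at 0.0484 and 0.0908 CPM in PlaB.

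SE KO PlaB had the highest Hox level outside retinoic acid, 49.7 and 48.1 CPM. By chi-square per degree of freedom (30.2) its 2 libraries differed more than those of any other group. The model pools this spread with that of the other groups. Against PlaB 15 tested members rose and 4 fell (25.9% and 26.1% of all genes tested), and most of the level gained was in Hoxb9 and the Hoxc cluster. Of the 9 Hoxc members 7 rose and none fell, and the cluster sum was 21.3 and 22.0 CPM against 9.40 and 8.58 in PlaB. The Hoxb sum was 18.7 and 17.2 CPM against 6.78 and 6.49. In this group Hoxb9 and Hoxc13 made up 30.7% and 24.3% of the Hox sum.

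Hoxb9 was at 15.9 and 14.1 CPM in SE KO PlaB and 1.99 and 1.54 in PlaB (3.09 ± 0.18, adjusted p = 8.12e-15), close to its 18.5 and 17.8 CPM in RA. Hoxb8 was at 1.74 and 1.21 CPM and Hoxc6, a thoracic gene, at 1.04 and 2.29, both with no count in PlaB and so at least 21.1-fold and 23.3-fold higher. Hoxc12 was at 2.04 and 2.15 CPM against 0.0969 and 0.182 (3.84 ± 0.59, adjusted p = 1.95e-06), and Hoxc11 at 49 counts against 3 (ratio 15.7, counting interval 5.06 to 78.6). The 2 groups did not overlap for any of them. Hoxc4 rose by 1.28 ± 0.25 and Hoxc10, which marks lumbar motor neurons, by 2.51 ± 0.67. Hoxc9 went from 1 count to 24 (ratio 23.0, counting interval 3.75 to 947) and Hoxc8 from 1 to 13.

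Among members that fell, Hoxb13 was at 0.390 and 0.653 CPM in SE KO PlaB against 2.66 and 3.31 in PlaB (-2.52 ± 0.35, adjusted p = 2.98e-07), and Hoxa9 went from 73 counts to 3 (ratio 0.0394, counting interval 0.00794 to 0.120). Hoxb2 and Hoxd8 fell by 1.90 ± 0.76 and 1.50 ± 0.52. The remaining rises were in Hoxa3, Hoxa11, Hoxa13, Hoxb5, Hoxd1 and Hoxd13, where Hoxa11, Hoxa13 and Hoxb5 rested on 8, 8 and 4 counts in SE KO PlaB. Leaving out PlaB replicate 1 ended the calls of Hoxa3, Hoxa11, Hoxa13, Hoxb2, Hoxb5, Hoxc8 and Hoxd1. Beside this, 5 of 8 primitive endoderm markers and 11 of 17 Polycomb and trithorax regulators were higher in SE KO PlaB than in PlaB and none lower. Of all genes tested, 25.9% were higher and 26.1% lower. The endoderm list was at 386 to 420 CPM against 59.7 to 69.7, and the part of these genes in the Hox difference was not tested.

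**Figure D5:**
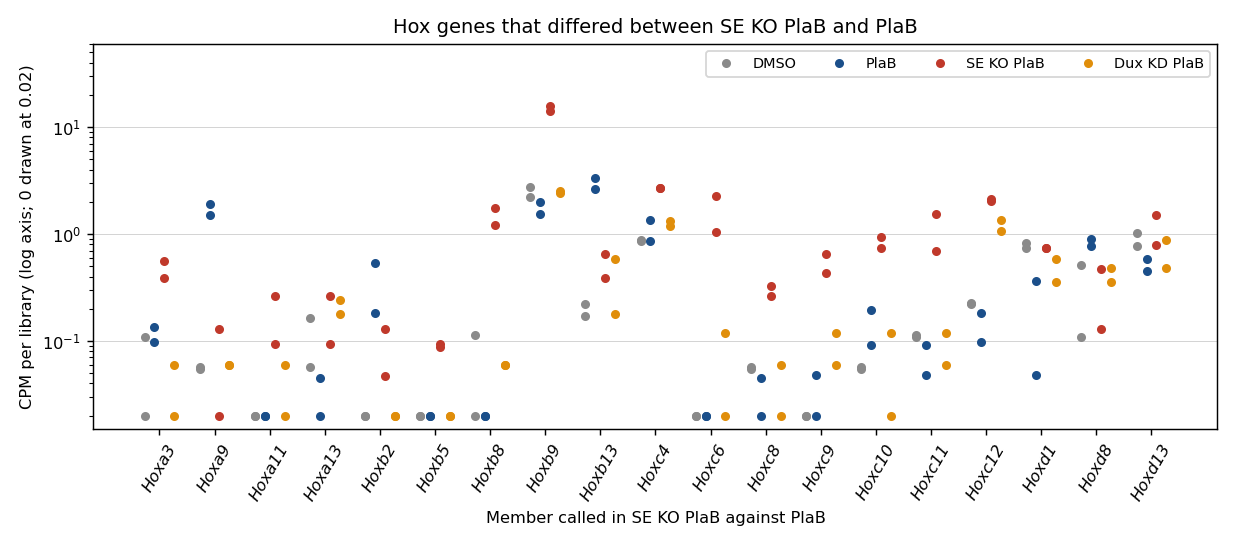
CPM per library (log axis, 0 drawn at 0.02) of the 19 Hox genes called in SE KO PlaB against PlaB, with 2 points for each of DMSO, PlaB, SE KO PlaB and Dux KD PlaB. Hoxb9 is at 15.9 and 14.1 CPM in SE KO PlaB and below 3 in the other 3 groups, and Hoxb13 and Hoxa9 have their highest points in PlaB.

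In Dux KD PlaB the sum was 19.1 and 17.9 CPM, and against PlaB 2 members rose and 9 fell (26.1% and 28.8% of all genes tested). These were 5.71% and 25.7% of the members tested, so the share that fell was near the background and the share that rose under it. Hoxa7, Hoxa9, Hoxa10, Hoxb2, Hoxb4, Hoxb7, Hoxb13 and Hoxc5 were among those that fell. These 8 had risen in PlaB against DMSO, and the 2 comparisons share the PlaB libraries. Hoxb13 was at 0.590 and 0.179 CPM against 2.66 and 3.31 (-2.94 ± 0.39, adjusted p = 1.51e-07). Hoxc5 had no count against 37, at least 9.73-fold lower, and Hoxa9 2 counts against 73. Hoxc12 rose to 1.36 and 1.08 CPM (3.06 ± 0.65), and Hoxa13 went from 1 count to 7.

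The overexpression groups, sampled after 24 h where the labels give a time, stayed near untreated ESCs. Zscan4 OE, Dux OE and DuxR70A OE received doxycycline and ESC did not, so overexpression and doxycycline cannot be told apart in comparisons with ESC. Zscan4 OE held 23.9 and 23.3 CPM of Hox RNA, Dux OE 19.2 and 17.8, DuxR70A OE 20.2 and 21.5, and ESC 19.6 and 19.1. Against ESC, Zscan4 OE had 2 members higher and 2 lower (7.25% and 4.39% of all genes tested), Dux OE 1 and 2 (7.38% and 2.12%), and DuxR70A OE 2 and 1 (10.2% and 6.72%). Scaling by library totals alone gave 5 higher and none lower for Zscan4 OE and 5 higher and 1 lower for DuxR70A OE. With DMSO in place of ESC, Zscan4 OE had 6 higher and 1 lower, and Dux OE and DuxR70A OE each had 3 higher and 0 lower. Of the calls against ESC, 1 was also made against DMSO for Zscan4 OE and 0 for Dux OE and for DuxR70A OE.

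Hoxc4 was the member called in all 3 comparisons, which share the ESC libraries. It was at 0.623 and 0.600 CPM in ESC, 1.75 and 1.63 in Zscan4 OE, 0.948 and 1.96 in Dux OE, and 1.67 and 1.63 in DuxR70A OE. The log2 differences were 1.45 ± 0.33, 1.25 ± 0.35 and 1.42 ± 0.33 (adjusted p = 9.67e-04, 0.00806 and 9.7e-04), and none of the 3 passed with DMSO in place of untreated ESC. Zscan4 OE also had higher Hoxb7 (19 counts against 1) and lower Hoxb9, at 2.59 and 2.23 CPM against 4.67 and 5.07 (-1.02 ± 0.20, adjusted p = 1.75e-04), and lower Hoxc12 (-1.35 ± 0.52). Hoxa10 had 1 count in each of Dux OE and DuxR70A OE against 12 in ESC. Hoxa7 was lower in Dux OE (-1.50 ± 0.45) and Hoxd1 higher in DuxR70A OE (1.41 ± 0.58), and both calls were lost without any 1 of the 4 libraries compared.

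DuxR70A OE against Dux OE had 1 member higher (6.11% of all genes tested) and none lower (7.51%, 0 also at an unadjusted p under 0.05 and by DESeq2), Hoxa5, with 6 counts against 0, and the call was lost without any 1 of the 4 libraries. Dux KD Zscan4 OE against Zscan4 OE had 2 higher and 1 lower (5.78% and 5.35% of all), Hoxa4 with 5 counts against 0, Hoxc12 (1.56 ± 0.51, adjusted p = 0.0197) and, lower, Hoxb7 with 4 counts against 19. Scaling by totals alone turned this split to 1 higher and 2 lower. The treatment label of Dux KD Zscan4 OE reads "no", with no time or dose. The knockdown and a missing Zscan4 induction therefore cannot be told apart in that comparison. SE KO Dux OE against Dux OE had 4 higher and 1 lower (2.46% and 3.84% of all). Hoxb13 was lower, at 0.159 and 0.0654 CPM against 0.583 and 0.676 (-2.37 ± 0.57, adjusted p = 0.00282), and was also lower in SE KO RA and SE KO PlaB against their own inductions. Hoxa13 was at 0.796 and 0.458 CPM against 0 and 0.135, and Hoxa7, Hoxa9 and Hoxa10 were the others that rose. With the SE KO Dux OE counts halved, 3 members were higher and 1 lower, and Hoxa7 did not pass (adjusted p = 0.0669). The fibroblast list was at 130 to 135 CPM in SE KO Dux OE against 58.3 to 62.2 in Dux OE, and its part was not tested.

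The 2 control groups differed as well. DMSO against untreated ESC had 1 member higher (8.32% of all genes tested) and 4 lower (7.91%). Hoxc12 was at 0.227 and 0.219 CPM in DMSO against 1.18 and 1.87 in ESC (-2.73 ± 0.61, adjusted p = 5.47e-04) and Hoxa7 at 0.227 and 0.110 against 0.810 and 0.800 (-2.22 ± 0.47, adjusted p = 4.04e-04). Hoxa11 and Hoxc9 rested on 7 and 5 ESC counts against 0, and Hoxd1 was the member that rose (1.58 ± 0.57, adjusted p = 0.0257). For Hoxc12 the choice of control decides the direction under retinoic acid, since its RA level of 0.837 and 0.652 CPM was above DMSO and below ESC (-1.02 on the log2 scale against ESC).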

How the data were processed

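RNA-seq was performed on 26 poly(A) libraries of R1 mouse ESCs, 2 per group in 13 groups assigned from the labels. The authors deposited raw read counts per gene for all libraries. Per the labels, the processing used FastQC, Trimmomatic, STAR, featureCounts and DESeq2 on mm10. Versions, strand setting and the treatment of multiply mapped reads are not given in the sources used here. Counts were normalised by TMM in edgeR 4.0.16 (R 4.3.3), genes with low counts were removed with filterByExpr (20953 of 55291 kept, 35 of 39 Hox genes; Hoxd3, Hoxd10, Hoxd11 and Hoxd12 were not tested), and 1 quasi-likelihood model was fitted over all 26 libraries. A call required a Benjamini-Hochberg adjusted p under 0.05 over all genes tested and a log2 change of 1 or more in either direction. Levels are CPM on TMM-scaled totals, where 3 counts over a pair of libraries served as the floor (0.0796 to 0.226 CPM for 3 counts in 1 library). Errors of log2 changes are standard errors from the fit. Counting intervals are exact, at 95%, and cover counting error only. The procedure was tested on simulated data.

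For 1 member and 2 genes of the lists, values are not reported here, while counts, medians and sums include them. Values were given for members among the 12 with the highest summed CPM over the RA, SE KO RA and Dux KD RA libraries. Other called members were given by values, by counts or by name, and not every call is printed with its values. Genes outside the clusters came from lists of cofactors, regulators, neighbours and cell type markers, as did non-coding transcripts of the clusters. The members and lists were chosen with earlier results of these data known. Same-numbered replicates did not deviate together (r from -0.0473 to 0.0237 over comparisons), so no pairing was used. Replicates of a group differed by more than counting noise (chi-square per degree of freedom 1.55 to 30.2). The value was 30.2 in SE KO PlaB, 26.1 in Dux KD Zscan4 OE and at most 9.81 in every other group. The treatment label of Dux KD Zscan4 OE reads "no", and its group was taken from its title. Alternatives tried were RLE normalization, scaling by library totals, no filter on low counts, no fold threshold, a replicate block, fits of only the groups compared, DESeq2 1.42.0, exchange of the DMSO and ESC controls, and leaving out each library in turn.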

Additional observations from a re-analysis of the deposited data

Results flagged for a closer look

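The difference between SE KO and unaltered cells was not the same under both inducers for 14 of the 35 tested members, by a test of the difference of differences in the edgeR model, with 4 higher under retinoic acid and 10 lower. These were 11.4% and 28.6% of the members tested, against 20.7% and 28.3% of all genes tested, so the share that was lower was near the background and the share that was higher was under it. Values below are the log2 difference under retinoic acid minus that under pladienolide B. Members of Hoxc with lower values were Hoxc6 (-8.84), Hoxc9 (-4.05), Hoxc10 (-2.34), Hoxc11 (-5.13), Hoxc12 (-5.29) and Hoxc13 (-1.16). In Hoxb they were Hoxb8 (-8.34) and Hoxb9 (-3.31), and in Hoxa they were Hoxa3 (-2.75) and Hoxa11 (-6.18). The members with higher values were Hoxa9 (2.91), Hoxb13 (1.06), Hoxc5 (2.15) and Hoxd8 (2.81). For Hoxb9 the levels behind the value were SE KO PlaB at 15.9 and 14.1 CPM against PlaB at 1.99 and 1.54, beside SE KO RA at 15.9 and 15.2 against RA at 18.5 and 17.8. Without SE KO RA replicate 1 the calls of Hoxb13 and Hoxc13 were lost (adjusted p = 0.074 for Hoxb13, and a value of -0.93 for Hoxc13).

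The difference between Dux KD and unaltered cells also depended on the inducer, for 11 tested members, with 9 higher under retinoic acid and 2 lower. These were 25.7% and 5.71% of the members tested, against 26.6% and 25.5% of all genes tested, so the share that was higher was near the background and the share that was lower was under it. The higher ones included Hoxa7 (2.17), Hoxa9 (5.38), Hoxa10 (2.13), Hoxb2 (5.54), Hoxb4 (4.18), Hoxb7 (3.29), Hoxb13 (1.96) and Hoxc5 (8.74). The lower ones were Hoxa13 (-3.3) and Hoxc12 (-3.83). Values of members with no count in a group, among them Hoxb2 and Hoxc5 in Dux KD PlaB and Hoxb8, Hoxc6 and Hoxa11 in PlaB, depend on the prior count of the fit and are no bound. The 2 tests share the RA and PlaB libraries. SE KO and Dux KD cells without an inducer were not analysed here, and why the differences depend on the inducer was not tested.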

How the results depend on the processing

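The numbers below count called Hox genes unless stated otherwise. Over the 208 pairs of a gene and a comparison that were called, 2511 alternative values were computed. Of these, 2277 kept direction and call, and 229 kept direction but no longer passed. Of the last 5, 4 turned direction and 1 went to 0. Leaving out 1 library accounted for 148 of the calls lost and, among the last 5, for the value of 0. The 5 were Hoxc12 in RA against ESC in place of DMSO (-1.02), Hoxa11 in SE KO RA against DMSO without SE KO RA replicate 2 (0, and 6.19 without replicate 1), and, with DMSO in place of ESC, Hoxc12 in Zscan4 OE (1.39), Hoxa7 in Dux OE (0.72) and Hoxd1 in DuxR70A OE (-0.17). The cause was not tested.

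Without a fold threshold, 17 genes were called in SE KO RA against RA (5 higher, 12 lower), 6 in Dux KD RA against RA, 5 in each of Dux KD Zscan4 OE against Zscan4 OE, Dux OE against ESC and DuxR70A OE against ESC, and 8 in SE KO Dux OE against Dux OE. DESeq2 called 7 in SE KO RA against RA, 1 in Dux OE against ESC, 3 in SE KO Dux OE against Dux OE and 3 in DMSO against ESC. Fits of only the groups compared gave 3 in Dux KD RA against RA, 1 in Dux KD Zscan4 OE against Zscan4 OE, 0 in DuxR70A OE against Dux OE and 3 in SE KO Dux OE against Dux OE. Scaling by library totals moved every log2 difference by -0.20 to 0.26, depending on the comparison, and gave 6 in DuxR70A OE against ESC and 2 in DuxR70A OE against Dux OE. With DMSO in place of ESC, Zscan4 OE had 7 (6 higher, 1 lower). With halved SE KO Dux OE counts, an alternative chosen after seeing the data, SE KO Dux OE against Dux OE had 4.

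Same-numbered replicates share only a number. With a replicate block, DuxR70A OE against Dux OE had 0 calls and SE KO RA against RA 11, as without the block, and the other counts stayed within 1.5 times.

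With 1 library left out, where the lone library of a group is assumed to vary like those of other groups, counts ran from 30 to 33 in RA against DMSO, 30 to 31 in SE KO RA against DMSO, 31 to 32 in Dux KD RA against DMSO, 7 to 8 in SE KO RA against RA, 0 to 2 in Dux KD RA against RA, 6 to 9 in Dux KD RA against SE KO RA, 9 to 11 in PlaB against DMSO, 13 to 18 in SE KO PlaB against PlaB, 9 to 11 in Dux KD PlaB against PlaB, 1 to 4 in Zscan4 OE against ESC, 1 to 2 in Dux KD Zscan4 OE against Zscan4 OE, 0 to 2 in Dux OE against ESC, 1 to 5 in DuxR70A OE against ESC, 0 to 1 in DuxR70A OE against Dux OE, 1 to 4 in SE KO Dux OE against Dux OE and 2 to 5 in DMSO against ESC. The difference between inducers had 12 to 16 for SE KO and 10 to 11 for Dux KD.

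Outside retinoic acid most members had few counts, so a difference in them was often not detectable at this depth.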
